A study of Homo sapiens with 4 samples.

Results

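Wide accessible regions are stretches of at least 2000 bp in which accessible sites lie so close together that their peaks join. They were found by merging the ATAC-seq peaks of 4 libraries of the BCPAP line on chromosomes 1 to 22 wherever peaks shared at least 1 bp. A merged region counted as wide when it measured 2000 bp or more and held at least 1 peak of every list. Of 366095 merged regions 103006 were present in all 4 lists, and 3228 of those were wide, which is 3.13% of the regions in all 4 lists and 0.882% of all merged regions. Another 76 merged regions reached 2000 bp without a peak in every list, 73 of them in 3 lists, 3 in 2 lists and 0 in 1 list. Width and presence chose the regions, so both are given as a description only.

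ATAC-seq marks exposed DNA with a transposase that cuts it and attaches adapters, and reads pile up where nucleosomes are absent or loosely held. An isolated open site usually gives a single narrow peak. Chains of open sites are known from active promoters with their flanks, from clusters of enhancers and from highly transcribed genes, and a peak caller reports them as one long peak with several summits or as several neighbouring peaks. 5-Azacytidine, a cytidine analogue, is incorporated into nucleic acids, traps DNA methyltransferases and so lowers DNA methylation in dividing cells.

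BCPAP is an established human cell line from a papillary thyroid carcinoma. The libraries were 2 from untreated cells and 2 from cells treated with 5-azacytidine, and the labels give no other difference between the groups. The labels give neither a dose nor a duration of treatment, and whether the replicates are separate cultures is not stated, so p-values measure a spread between libraries that may be technical. Where 4 values follow each other they are in the order untreated replicate 1, untreated replicate 2, treated replicate 1, treated replicate 2, and a pair of values is in the order of the replicate numbers. On chromosomes 1 to 22 there were 216020 and 218581 listed peaks without treatment and 254980 and 239875 with it. How many reads lie behind them is unknown. Summit coverage, the number of reads stacked at a summit, was 4 or more for every listed peak. Over all regions in 4 lists the median of the mean summit coverage was 22 and 17 in untreated against 11 and 15.5 in treated libraries, so that treated replicate 1 stood apart as the lowest. The genes at the positions below were not analysed here, because the annotation at hand is on another build than hg19.

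The 3228 wide regions together spanned 8.27 Mb. Their width ran from 2000 to 7904 bp with a median of 2368 bp. Most lay close to the limit: 1258 reached 2500 bp, 530 reached 3000 bp, 108 reached 4000 bp and 33 reached 5000 bp. Exactly 2000 bp was measured in 13 regions and 1999 bp, just outside, in 6. In the 50 bp on either side of the limit the numbers were the same, with 298 regions below it and 298 above it. A region just inside, on chromosome 1 from 156469588 to 156471587, had 3 and 3 summits in untreated against 2 and 2 in treated lists. A region just outside, on chromosome 10 from 90749778 to 90751776, had 4 and 2 summits in untreated against 3 and 3 in treated lists. Neither the numbers nor these examples show a break at the limit.

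Wide regions were unevenly spread over the genome. They made up 6.25% of the regions in all 4 lists on chromosome 20 (95% Wilson interval 5.55 to 7.04), 5.30% on chromosome 19 (4.62 to 6.07), 5.11% on chromosome 11 (4.61 to 5.66) and 5.04% on chromosome 17 (4.44 to 5.71). The lowest shares were 1.34% on chromosome 18 (0.915 to 1.95), 1.57% on chromosome 21 (0.995 to 2.47) and 1.76% on chromosome 2 (1.49 to 2.08). The intervals cover counting error only, and the regions of a chromosome are not replicates. By number, chromosome 1 led with 411 wide regions, followed by chromosome 11 with 348, chromosome 5 with 290 and chromosome 20 with 255.

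**Figure D1:**
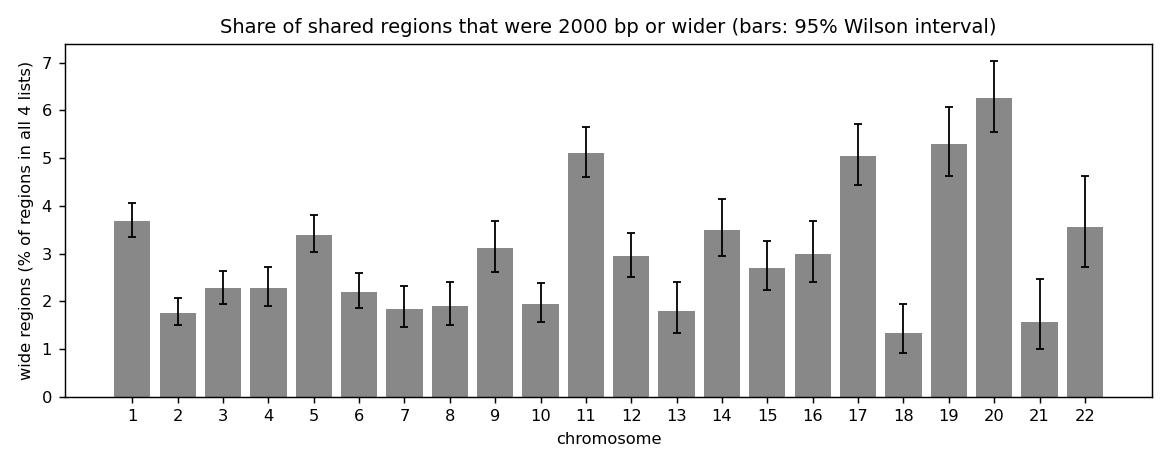
Share of the regions in all 4 lists that were 2000 bp or wider (%, vertical axis) on each of chromosomes 1 to 22 (horizontal axis), with the 95% Wilson interval as the error bar. Chromosomes 20, 19, 11 and 17 lie above 5%, and chromosome 18 is the lowest at 1.34%.

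Some stretches of 1 Mb were crowded with them. Chromosome 11 between 65 and 66 Mb held 44 wide regions among 211 regions in all 4 lists, and they spanned 120822 bp. The end of chromosome 20 came next, with 38 of 235 between 61 and 62 Mb and 30 of 202 between 62 and 63 Mb. Chromosome 1 held 28 of 177 between 1 and 2 Mb, and chromosome 5 between 176 and 177 Mb and chromosome 17 between 79 and 80 Mb held 23 each. Neighbouring wide regions on a chromosome lay 165072 bp apart in the median, but 566 of the gaps were under 10000 bp and 172 were under 1000 bp. These windows were picked by their counts and were not tested.

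The widest region lay on chromosome 11 from 861896 to 869799 (7904 bp) and was also the one with the most summits, 47 over the 4 lists. It had 11 and 12 summits in untreated against 12 and 12 in treated libraries, at a mean summit coverage of 13.8, 13.4, 17.8 and 21.5. No summit stood out in it, since the highest coverage was 24, 22, 30 and 31. The second widest, on chromosome 11 from 69467494 to 69475260 (7767 bp), had 10 and 8 summits in untreated against 12 and 13 in treated lists. Its mean summit coverage was 14.9 and 16.1 in untreated against 23 and 26.8 in treated libraries. In both regions the treated libraries lay above the untreated ones in coverage, and neither passed limma's test described further on (adjusted p = 0.118 and 0.0576).

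The other regions among the 10 widest measured 6022 to 6948 bp. They lay on chromosome 19 from 59062013, chromosome 20 from 61924390, chromosome 14 from 24645579, chromosome 2 from 113968644, chromosome 11 from 2424670 and from 118527779, chromosome 16 from 89630798 and chromosome 15 from 75638949. The region on chromosome 20 (61924390 to 61930988) had 11, 11, 9 and 11 summits in the order of the libraries above and a coverage of 16.7, 16.2, 17.8 and 27.8. The region on chromosome 19 (59062013 to 59068960) had 4, 10, 8 and 10 summits, so that untreated replicate 1 alone was low there. Its coverage ran the other way, at 25 in untreated replicate 1 and 16.9, 10.4 and 13.6 in the others. The high mean in untreated replicate 1 is thus a mean over few summits. Among the 5 regions with the most summits, the region on chromosome 20 from 62326507 to 62331766 had the highest peak, with a coverage of 117 and 94 in untreated against 81 and 142 in treated libraries.

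A wide region held a median of 3 listed summits in each of the 4 lists. The mean was 3.17 and 3.42 in untreated against 3.27 and 3.52 in treated libraries, and the highest number was 11, 12, 12 and 13. Replicate 2 was above replicate 1 in both groups. In regions of 1000 to under 2000 bp the means were 1.65 and 1.74 in untreated against 1.69 and 1.82 in treated lists. Most wide regions, but not all, had several summits in a given list: only 1 was listed for 8.46% and 4.09% of them in untreated against 3.10% and 2.94% in treated lists. At the other end, 13.8% and 18.5% had 5 or more summits in untreated against 12.6% and 18.4% in treated lists.

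**Figure D2:**
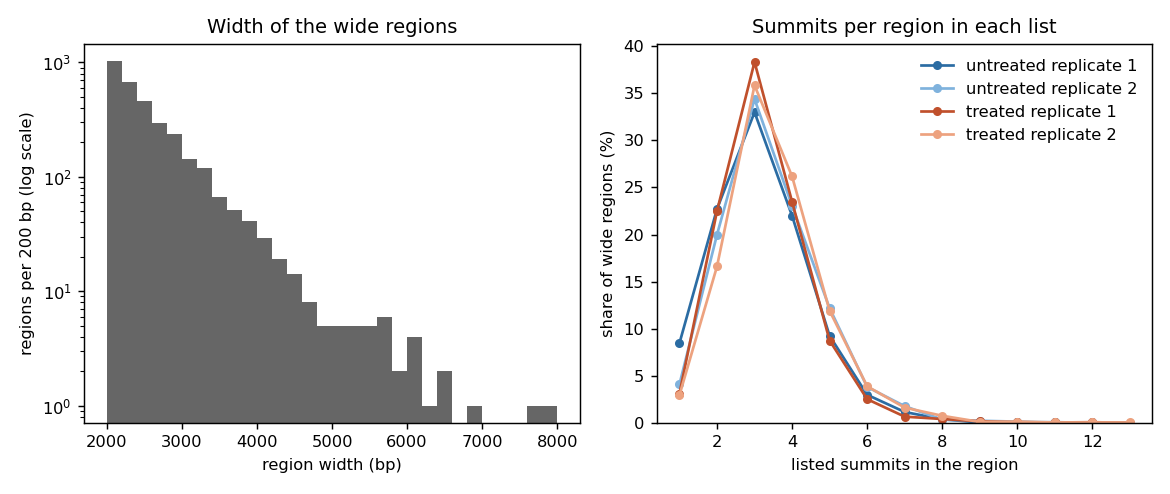
Left, number of wide regions (vertical, log scale) by width in steps of 200 bp (horizontal). Right, share of the 3228 wide regions (%, vertical) with each number of listed summits (horizontal), 1 line per list: all 4 lines have their top at 3 summits, and untreated replicate 1 has the most regions with 1 summit (8.46%).

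The merged width comes from the 4 lists together, and few single lists would give a region of that size. When the intervals of 1 list alone were joined over chromosomes 1 to 22, stretches of 2000 bp or more numbered 37 and 69 in untreated against 24 and 40 in treated lists. From the start of its first interval to the end of its last, a list spanned a median of 1836 and 1924 bp of a wide region in untreated against 1997 and 2015 bp in treated libraries. Each list thus had sites spread over most of the region, with gaps that another list filled. Neighbouring summits lay 536 and 520 bp apart (medians) in untreated against 622.5 and 553 bp apart in treated lists. All intervals but a few are 500 bp long, so this distance also decides whether neighbouring intervals touch.

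Of all bases in wide regions, 21.6% were covered in all 4 lists, 22.4% in 3, 29.0% in 2 and 27.0% in 1 list only. Bases in both treated lists and no untreated list made up 6.05%, and bases in both untreated lists and no treated list 4.64%. At least 400 bp of the first kind were found in 400 wide regions (12.4%), against 1.42% of all regions in 4 lists and 3.85% of those of 1000 to under 2000 bp. At least 400 bp of the second kind were found in 248 (7.68%), against 0.898% and 2.36%. The strongest summit of a region lay within 100 bp in both untreated lists in 60.7% of wide regions and in both treated lists in 50.9%. Between an untreated and a treated list it did so in 50.8% to 56.1%, so the treated pair was no more alike than libraries of different groups. The strongest summit was within 100 bp in both pairs in 1296 wide regions. All 4 libraries had it at the same place in 1137 of those, and in 30 it lay over 500 bp apart between the groups. Where a list had 3 or more summits, inner summits pooled over regions had a higher median coverage than outer ones. It was 23 against 15 and 21 against 14 in the untreated libraries and 13 against 10 and 17 against 12 in the treated libraries. The strongest summit was an inner one in 48.8%, 52.1%, 50.7% and 53.5% of those regions. Inner summits made up 47.7%, 49.1%, 46.6% and 49.0% of all summits there. That share is pooled over summits, so regions with many summits weigh more in it. Among summits of equal coverage the first along the chromosome was taken as the strongest. These shares therefore do not show whether the strongest summit was inner more often than any summit.

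The comparison of groups asked whether wide regions had more summits, more covered bases or other coverage after 5-azacytidine. The number of listed summits differed by less than the spread between replicates, with 3.39 ± 0.176 per region in treated and 3.30 ± 0.177 in untreated lists (SD, n = 2 each), a difference of 0.094. By the exact permutation test (two-sided, n = 2 against 2) p was 0.667, and the smallest p this design allows is 0.333. Covered bases were also within the spread. The lists covered 1439 and 1543 bp of a region in untreated against 1524 and 1603 bp in treated libraries. These are 56.2%, 60.2%, 59.5% and 62.6% of the width, and the group means differed by 72.9 bp (exact permutation p = 0.667, n = 2 each). Without treated replicate 2, and with regions chosen again from the other 3 lists, both differences turned, to -0.16 summits and -14.4 bp, and without untreated replicate 1 the difference in summits was -0.035.

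Over all wide regions together the groups did not overlap in how the summits were joined. The caller gives all summits of one original peak the same number, which shows how many original peaks a region held. A wide region held 1.79 and 1.87 original peaks in untreated against 2.25 and 2.00 in treated libraries. Both treated lists were above both untreated lists, with means of 2.13 ± 0.172 against 1.83 ± 0.0550 (SD, n = 2 each), which is 16.1% more, at p = 0.333 by the exact permutation test, the smallest it can give. The order of the groups was the same on each of the 22 chromosomes, which share the 4 libraries and are not replicates. On chromosome 19 the margin was narrow, at 2.088 in untreated replicate 2 against 2.093 in treated replicate 2. Neighbouring summits belonged to the same original peak in 63.5% and 64.1% of cases in untreated against 45.0% and 60.1% in treated lists. Treated replicate 1, the library with the lowest coverage, had the most original peaks, and the part of coverage in this was not tested. With regions chosen without that library the difference fell from 0.295 to 0.094 original peaks. The next narrower regions, of 1000 to under 2000 bp, showed the same order, with 1.20 and 1.24 against 1.38 and 1.32 original peaks, 10.8% more in the treated lists. The log2 ratio of wide to narrower regions was 0.58 and 0.60 in untreated against 0.71 and 0.60 in treated libraries (exact permutation p = 0.333, n = 2 each). Among the wide regions of at least 3000 bp the difference was 0.21 original peaks, and the groups overlapped (exact permutation p = 0.667, n = 2 each).

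**Figure D3:**
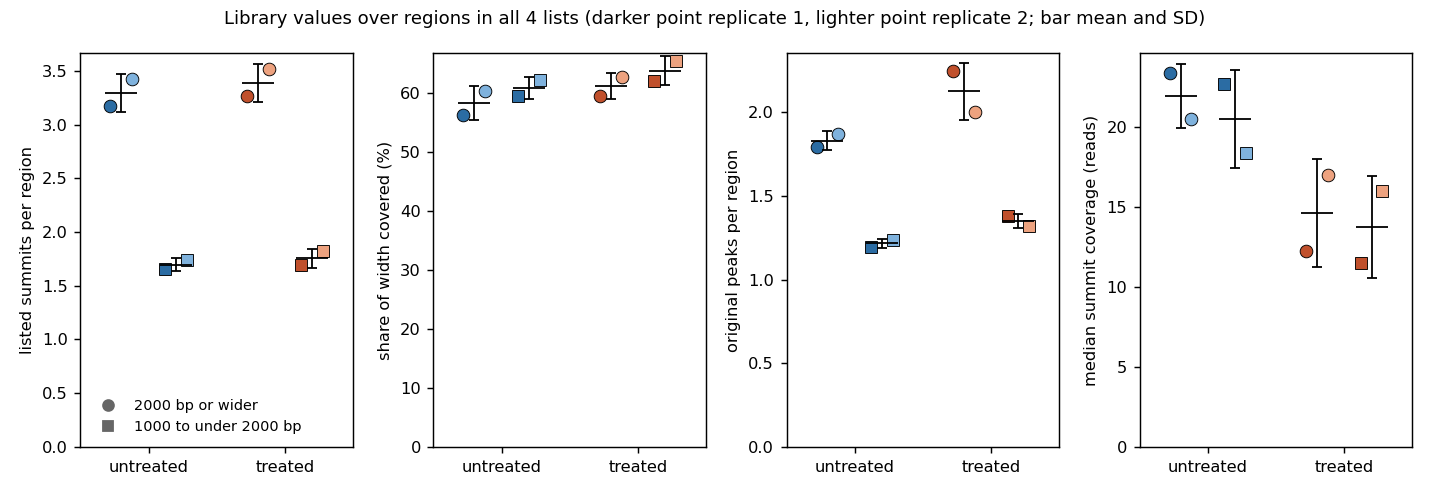
Value of each library over the wide regions (circles) and over regions of 1000 to under 2000 bp (squares) for untreated (blue) and treated (red) cells: listed summits per region, share of the width covered (%), original peaks per region and median summit coverage (reads), with bars for the mean and SD of 2 libraries. Both treated libraries are above both untreated ones in original peaks (2.25 and 2.00 against 1.79 and 1.87) and below them in coverage.

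Counted region by region, both treated lists had more summits than both untreated lists in 353 wide regions (10.9%), against a background of 2.40% of all regions in 4 lists and 7.39% of those of 1000 to under 2000 bp. Both treated lists had fewer in 244 wide regions (7.56%), against 1.76% and 4.88%. Of the regions in the background 77.5% to 81.8% had only 1 summit, depending on the list, and the shares were larger for wider regions in both directions. Covered bases were higher in both treated lists in 610 wide regions (18.9%, background 3.94%, and 12.2% of the narrower ones) and lower in 391 (12.1%, background 2.74%, and 7.78%). Original peaks were more numerous in both treated lists in 464 wide regions (14.4%, background 1.89%, and 5.92%) and less numerous in 122 (3.78%, background 0.576%, and 1.86%). The excess of gains in summits over losses held only in part of the settings. It was 267 against 252 with equal list lengths and turned to 95 against 179 with a −log10 q of at least 5. Leaving out untreated replicate 1 gave 349 against 418, and leaving out treated replicate 2 gave 277 against 360. In choices made after seeing the data, summits numbered by the caller, listed or not, gave 428 against 431, and wide regions of no missing peak number 165 against 140.

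The region with the largest gain in summits lay on chromosome 11 from 2419224 to 2422773, with 4 and 3 summits in untreated against 8 and 7 in treated lists. Its highest coverage was 144 and 106 in untreated against 89 and 142 in treated libraries, so the groups overlapped in height where they did not in number. On chromosome 1 from 65209645 to 65212147 the lists had 2, 2, 5 and 6 summits, all in 1 original peak in each list. There the highest coverage was 72 and 52 in untreated against 31 and 31 in treated libraries, so more summits stood beside lower ones. On chromosome 20 from 61278464 to 61283049 the lists had 3, 2, 5 and 6 summits, and on chromosome 1 from 71520195 to 71522372 they had 1, 1, 3 and 5. The second widest region on chromosome 11 is also among these 5, but without untreated replicate 2, where the remaining lists divide it differently, its difference was -0.5 summits. The other gains also shrank when 1 treated library was left out and the regions were chosen again. The region from 71520195 went from 3 to 0 and that from 65209645 from 3.5 to 2 without treated replicate 2. The one on chromosome 20 went from 3 to 1 without either treated library, and the largest gain from 4 to 2.5 without treated replicate 1.

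The largest losses were of similar size. On chromosome 11 from 75271632 to 75274542 the untreated lists had 5 and 7 summits and the treated lists 2 and 3. The lists had 7, 6, 2 and 4 summits on chromosome 10 from 31607012 to 31610345, and 7, 7, 3 and 4 both on chromosome 10 from 103878706 to 103882216 and on chromosome 1 from 65531147 to 65535063. On chromosome 7 from 130592796 to 130595232 the untreated lists had 4 and 4 summits of a coverage of at most 11, and each treated list had 1 summit with a coverage of 7. A summit listed in untreated cells only was thus a low one in that region. The summits of these 10 regions were not tested one by one. With regions chosen again, the difference on chromosome 10 from 103878706 was -0.5 summits without untreated replicate 1, and without untreated replicate 2 those from 75271632 and from 65531147 were -2 each.

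Joining of summits into 1 original peak went mostly one way. In 292 wide regions (9.05%) both untreated lists had 1 original peak and both treated lists several, against 1.7% of all regions in 4 lists and 5.81% of those of 1000 to under 2000 bp. The reverse held in 53 (1.64%), against 0.506% and 1.85%, so the direction was the same in the narrower regions. All 4 lists had 1 original peak in 232 and several in 982. The longest original peaks went the other way. Length is given here from the start of an original peak to its last listed summit, a lower bound since summits are missing from the lists. Original peaks of at least 8000 bp that touched a wide region numbered 3 and 5 in untreated against 11 and 26 in treated libraries. The means were 4.0 ± 1.41 and 18.5 ± 10.6 (SD, n = 2 each, exact permutation p = 0.333, the smallest possible). They were 0.052%, 0.084%, 0.153% and 0.407% of the original peaks touching a wide region. Among all original peaks, touching one or not, 3, 6, 13 and 29 reached that length. The contrast is thus that of the whole lists. At 5000 bp the lists held 17, 31, 25 and 65 that touched a wide region. At 3000 bp they held 155, 202, 101 and 230, and at 2000 bp 576, 650, 317 and 634. The groups overlapped at each of these shorter lengths. Over the wide regions in general the lists had 1.77 and 1.83 listed summits per original peak in untreated against 1.45 and 1.75 in treated libraries. Treated replicate 2 was thus close to the untreated lists, and only treated replicate 1 was clearly lower. Both treated lists had more of the very longest peaks. The length of 8000 bp was chosen after the data were seen.

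The 45 original peaks of at least 8000 bp that touched a wide region lay at 27 places. In 22 of these only treated lists reached that length, in 7 both treated lists and in 15 treated replicate 2 alone. In 4 places an untreated and a treated list reached it, in 2 of them all 4 lists, and in 1 place the untreated lists only. The longest peak at a place had a median of 4325 and 4522 bp in untreated against 6508 and 9923 bp in treated lists. In 15 of the 27 places both treated lists had a longer peak than both untreated lists, and in 1 both had a shorter one. The lengths chose the places, so these counts are a description.

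The longest stretch lay on chromosome 1 from 41484768 to 41503939 and held 3 wide regions. Treated replicate 2 had a single original peak of 19171 bp there, with at least 47 numbered summits of which 25 were listed, and treated replicate 1 had one of 14147 bp. The untreated lists had 11 and 15 separate original peaks in the same stretch, none longer than 588 and 946 bp. The highest coverage was 18 and 19 in untreated against 44 and 57 in treated libraries. On chromosome 20 from 62316270 to 62325468 the treated lists had 1 original peak each, of 8961 and 9198 bp, and the untreated lists 7 and 8, up to 2734 and 2195 bp. On chromosome 19 from 5690014 to 5701451 the longest peak was 3051, 2750, 8743 and 11437 bp in the order untreated replicate 1 and 2, treated replicate 1 and 2. The opposite case lay on chromosome 19 from 45970719 to 45982373, where the untreated lists had peaks of 10349 and 11177 bp and the treated lists 6933 and 5030 bp. Its highest coverage was 61 and 46 in untreated against 32 and 47 in treated libraries. The places on chromosome 5 from 137798917 to 137810310 (10786, 9058, 11355 and 11365 bp) and on chromosome 11 from 65204833 to 65217522 (8264, 8221, 10673 and 12689 bp) were long in all 4 lists.

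**Figure D4:**
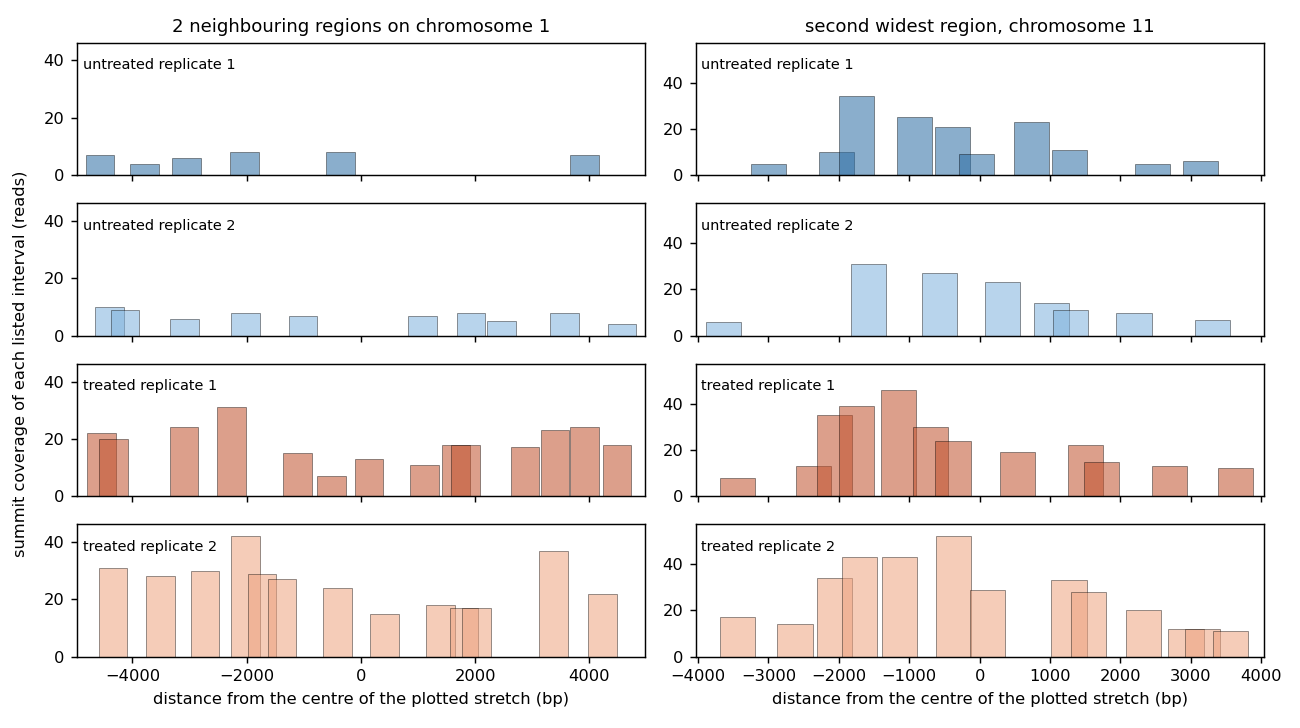
Listed intervals of 500 bp in each library (rows), by distance from the centre of the plotted stretch (bp, horizontal) with the coverage at the summit as height (reads, vertical), for 2 neighbouring wide regions of chromosome 1 inside the longest stretch (left) and for the second widest region, on chromosome 11 (right). On the left the untreated bars do not exceed 10 reads and the treated bars reach 31 and 42, and on the right the highest bars are 34 and 31 in untreated against 46 and 52 in treated libraries.

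Unscaled summit coverage was lower in the treated libraries. The median over wide regions was 23.3 and 20.5 in untreated against 12.3 and 17.0 in treated libraries, a difference of -7.29 reads (exact permutation p = 0.333, n = 2 each). All regions were lower by a similar factor. Relative to the median over all regions in 4 lists, the wide regions stood at a log2 ratio of 0.08 and 0.27 in untreated against 0.16 and 0.13 in treated libraries, and the difference of -0.033 was within the spread (exact permutation p = 1.0, n = 2 each). In every library a wide region was only slightly above the typical region by the mean of its summits. It was clearly above by its highest summit, at a median of 39, 34, 18 and 26 reads against 23, 18, 11 and 16 over all regions. The highest of several summits is larger than a single one by selection alone, and 77.5% to 81.8% of all regions had only 1 summit. The part of summit number in this excess was not tested. That excess was 0.76 and 0.92 in untreated against 0.71 and 0.70 in treated libraries on the log2 scale (exact permutation p = 0.333, n = 2 each).

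Each region was then tested with limma on the log2 of its mean summit coverage, with every library centred on its median and Benjamini-Hochberg adjustment over the 103006 regions. At an adjusted p under 0.05, 26 wide regions rose in treated cells (0.805%, background 0.825%) and 20 fell (0.620%, background 0.758%). Among regions of 1000 to under 2000 bp 0.699% rose and 1.08% fell. By mean coverage the share called was thus near the background in both directions. The median log2 change was 0.015 over the wide regions and 0.018 over all. By summed coverage 145 of the 3228 wide regions were called higher and 40 lower, beside 663 and 452 of all 103006 regions. By the highest summit the counts were 155 and 205, beside 2385 and 2171. The shares of wide regions lay above the background by those measures. Nearness to the background and the balance of directions thus depend on the measure. The calls also depend on the scaling. With no centring, where the median log2 change over all regions was -0.55, or with quantile normalization limma called 0 wide regions at the same threshold, where 579 and 347 of them had an unadjusted p under 0.05. Without untreated replicate 1 or without untreated replicate 2 limma also called 0, with 157 and 204 at an unadjusted p under 0.05. Without treated replicate 1 it called 5 higher and 14 lower, and without treated replicate 2 it called 7 and 13.

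The change followed the level of coverage. When the wide regions were divided into 4 equal groups of 807 by mean coverage, the median log2 change was 0.64 in the lowest group, 0.10 and -0.16 in the next 2 and -0.31 in the highest. In the lowest group the median coverage was 7 and 7 in untreated against 7 and 8 in treated libraries, near the lowest value that is listed. In the highest group it was 51.5 and 42.3 against 21.9 and 30.6. All regions in 4 lists of the same coverage showed the same order, with 0.44, 0.05, -0.13 and -0.23. All 20 regions that fell were in the highest group, and 14 of the 26 that rose were in the second lowest. Quantile normalization, which gives the libraries one distribution, brought the 4 medians to 0.31, 0.06, -0.07 and -0.15. How much of the called changes belongs to this relation with level was not tested.

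**Figure D5:**
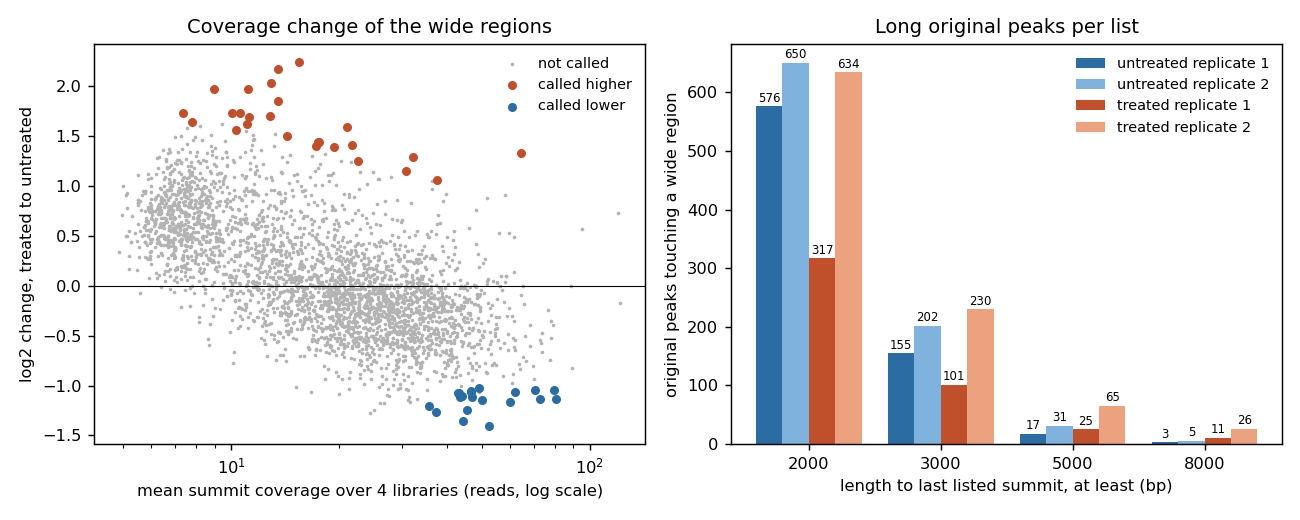
Left, log2 change in mean summit coverage (treated to untreated, centred, vertical) of the 3228 wide regions by their mean coverage (reads, log scale, horizontal), with the 26 regions called higher and the 20 called lower by limma in colour. Right, number of original peaks touching a wide region (vertical) by smallest length (bp, horizontal) in each list: 3, 5, 11 and 26 at 8000 bp.

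The regions that rose were wider than most and low in untreated cells, a level that entered the change by which they were chosen. Their median width was 2811.5 bp, and their median coverage was 9.17 and 8 in untreated against 18.3 and 21.5 in treated libraries. Their log2 changes were 1.06 to 2.23, and they lay on 10 chromosomes, with 5 each on chromosomes 1, 5 and 11 and 4 on chromosome 19. They had a mean of 2 and 2.35 original peaks in untreated against 1.69 and 1.62 in treated lists, the opposite order from the wide regions as a whole. Both treated lists had fewer in 6 of the 26 and more in 2, so these means rest on few regions. Fewer held for 3.78% of all wide regions and 0.576% of all regions in 4 lists, and more for 14.4% and 1.89%. In 9 of the 26 both treated lists had more summits than both untreated lists, which held for 10.9% of all wide regions and 2.40% of all regions in 4 lists.

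The 2 highest statistics belonged to neighbours inside the longest stretch on chromosome 1. In the first, from 41490495 to 41495974, mean coverage was 6.6 and 8 in untreated against 18.9 and 28.3 in treated libraries. Its log2 change was 2.23 ± 0.41 (SE), with an adjusted p of 0.00339 from limma. Without treated replicate 2 it was 1.44 and no longer called (limma adjusted p = 0.162), and without untreated replicate 2, where nothing was called, it was 2.88. In each treated list its 7 and 8 summits belonged to 1 original peak, while the untreated lists had 5 and 4 original peaks for 5 summits each. From 41496144 to 41500135 the coverage was 7 and 6.4 in untreated against 18.4 and 22.2 in treated libraries, and the log2 change 2.16 (limma adjusted p = 0.00507). Since both treated lists count both regions to the same original peak, they are not independent.

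On chromosome 5 the region from 137805294 to 137809555 was high in every library, with a mean coverage of 45.9, 48.6, 65.3 and 98.2 and a log2 change of 1.33 (limma adjusted p = 0.00605). It was a single original peak in all 4 lists, with 8, 8, 7 and 6 summits, so coverage was higher without more summits. The region on chromosome 20 from 61285972 to 61289654 had 6.67 and 7 in untreated against 22.3 and 15.8 in treated libraries (log2 change 2.02, limma adjusted p = 0.0115). It lies near the region from 61278464 that gained summits. The region on chromosome 5 from 154149191 to 154151369 had 6.67, 5.67, 16 and 16.3 (log2 change 1.96, limma adjusted p = 0.0138). Without treated replicate 1 these last 2 were no longer called (limma adjusted p = 0.0649 and 0.116). The groups did not overlap in any of these 5 regions, but the same coverages chose them, so this is a description only.

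The regions that fell were high in untreated cells, a level that entered the change by which they were chosen. Their median width was 2322 bp, near the 2368 bp of all wide regions and the 2321 bp of the highest coverage group. Their median coverage was 81.3 and 64.8 in untreated against 18.3 and 27 in treated libraries, with log2 changes of -1.40 to -1.03 on 11 chromosomes. They had 2.60 and 2.65 summits in untreated against 3.45 and 4.35 in treated lists. Their mean number of original peaks was 1.1 and 1.1 in untreated against 1.9 and 1.75 in treated lists. Both treated lists had more original peaks than both untreated lists in 6 of the 20 and fewer in 0. Measured by the highest summit in place of the mean, limma called 155 wide regions higher and 205 lower, and 37 of the 46 calls were shared. By summed coverage 18 of the 46 were shared. Of the 10 regions named by their limma statistic, 4 kept their call by summed coverage and 6 did not. The 6 include all 5 named below that fell (limma adjusted p = 0.0612 to 0.560).

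The lowest statistic belonged to chromosome 3 from 42630608 to 42633041, with a mean coverage of 114 and 55 in untreated against 18 and 22.7 in treated libraries (log2 change -1.40, limma adjusted p = 0.00966). Its untreated lists had 1 and 2 summits and its treated lists 3 and 3. The highest coverage was 114, 74, 34 and 52, and by that measure the log2 change was -0.51 with a limma adjusted p of 0.15, past the threshold by the mean only. Without treated replicate 2 the change in the mean was -0.86 (limma adjusted p = 0.0935). The region on chromosome 6 from 15244460 to 15246494 had 78, 62.5, 16.5 and 20.7 with 2, 2, 2 and 3 summits (log2 change -1.35, limma adjusted p = 0.0118, and 0.0149 by the highest summit). On chromosome 5 from 176852747 to 176854789 the coverage was 135 and 87.3 in untreated against 27.8 and 40 in treated libraries (log2 change -1.14, limma adjusted p = 0.0167).

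Chromosome 15 from 89877117 to 89879355 had 108 and 139.5 in untreated against 36.5 and 38.7 in treated libraries (log2 change -1.14, limma adjusted p = 0.0201). Without treated replicate 2 and with regions chosen again, its log2 change was -0.18 (limma adjusted p = 0.773). Its highest coverage was 149, 173, 62 and 94, for which the adjusted p was 0.0963. Chromosome 12 from 121123509 to 121125602 had 94, 88.5, 20.3 and 37.3 (log2 change -1.16, limma adjusted p = 0.0203, and 0.022 by the highest summit). Both treated libraries were below both untreated ones in all 5 regions, as they were in the unscaled median over all wide regions. The same coverages chose these 5 regions, so their order is a description only.

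The median change over the wide regions differed between chromosomes, and a link with their share on a chromosome was not tested. The wide regions of chromosome 20 were low in untreated cells, with a median coverage of 11.3 and 12 in untreated against 10.5 and 12 in treated libraries, where all regions of that chromosome had 20 and 15.3 against 11 and 15. Their median log2 change was 0.40 after centring, above the 0.12 of all regions on chromosome 20. The wide regions of chromosome 19 had 0.28 against -0.073, and those of chromosome 11 had 0.19 against 0.088. On chromosome 17 the median was -0.012 over the wide regions and -0.052 over all. Those of chromosome 8 had -0.18, of chromosome 18 -0.16, and of chromosomes 6 and 10 -0.14 each. Chromosomes 18 and 21 have the lowest shares of wide regions, and those of chromosome 21 had 0.045. With quantile normalization the values of chromosomes 20, 19 and 11 were 0.22, 0.16 and 0.092. Regions of a chromosome share their libraries, and the level of coverage differs between chromosomes as well, so its part in these values was not tested.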

How the data were processed

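ATAC-seq was performed on untreated and 5-azacytidine-treated BCPAP cells, with 2 libraries each, per the labels. Trimmomatic, Bowtie2, Picard and MACS2 and the hg19 build stand in the submitters' processing notes. Versions, settings and filters: not given in the sources used here. Each library has its own deposited peak list. The authors had scaled the peak score so that each list sums to 1000000, and it was not used further. The fold enrichment is the authors' value per peak. The −log10 p and −log10 q values in the deposited lists are also the authors'. The deposited summit offset was used for the length of original peaks. Fold values came in whole steps, with 100% of them within 0.01 steps of a whole number in every list. A Poisson model with a constant background gave 99.8% or more of the p-values (within a relative 0.02). The step gave a background coverage of 0.913 and 0.898 in the untreated and 0.898 and 0.875 in the treated libraries, and each fold value gave the summit coverage, so coverages were set side by side between lists only as reads, and depth in reads is unknown. Summits with the same peak number and different letters were taken as 1 original peak. Of the summits numbered in split peaks, 67.1% to 69.6% were listed, and a peak number was missing within 12.9% to 22.4% of the wide regions, depending on the list. The reason for the gaps is unknown here.

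Regions were merged at 1 bp overlap. Library values were compared with the exact permutation test (two-sided, 6 assignments). Coverage per region was tested with limma 3.58.1 (lmFit, eBayes with trend) in R 4.3.3 over all regions in 4 lists. Other steps used scipy 1.17.1, pandas 2.3.3, numpy 2.4.6 and matplotlib 3.10.9 under Python 3.11.15, and merging and test were tested on simulated data. Regions named are the 10 widest, the 5 with the most summits, the 5 with the largest gain and loss of summits among regions whose groups do not overlap, the 5 highest and lowest limma statistics and those nearest to 2000 bp. The longest original peaks and windows were chosen after the data were seen. The regions, rules and lists were chosen with earlier results of these data known. Replicate numbers mark no shared batch in the labels and were not used for pairing. Alternatives were other widths (1500 and 3000 bp), merging up to 150 bp apart or with 250 bp overlap, −log10 q of at least 5, equal list lengths (216020 peaks), other scalings and coverage measures, a mean coverage of at least 10, a replicate block and leaving out each library. Genes and sequences were not analysed here, since the tables at hand are on another build. Chromosome Y was left out.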

Additional observations from a re-analysis of the deposited data

Results flagged for a closer look

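On a contig assigned to chromosome 7 without a position, outside the chromosomes used above, 4 wide regions were present in all lists. Their median summit coverage was 6 and 7 in the untreated and 11.5 and 8 in the treated libraries, a difference of means of 3.25, and their mean number of summits was 2 and 2 against 2.75 and 2.25, a difference of 0.5. Both treated libraries were above both untreated ones. The difference was not tested.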

How the results depend on the processing

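The number of wide regions was 8946 at 1500 bp, 530 at 3000 bp, 8997 with merging up to 150 bp apart, 2 with an overlap of 250 bp, 1206 with a −log10 q limit of 5, 1740 with no missing peak number (chosen after seeing the data) and 1512 to 1892 without each library. The difference in summits was -0.26 at that q, 0 with 250 bp and -0.16 to 0.17 without each library. The difference in covered bases was -75.9 bp at that q and -14.4 to 105 bp without each library. Original peaks differed by -0.25 and coverage by 3.96 with 250 bp, where 2 regions remain, and by 0.094 to 0.460 and -11.5 to -6.38 without each library. At a width of 3000 bp original peaks differed by 0.21, and the groups overlapped. Relative coverage was 0.19 at 3000 bp, 1.0 with 250 bp and -0.19 to -0.018 without each library. Regions called higher and lower numbered 64 and 66 at 1500 bp, 12 and 0 at 3000 bp, 0 and 0 with 250 bp, with no centring and with quantile normalization, 155 and 205 by the highest summit and 145 and 40 by summed coverage. Lower calls were 39 with 150 bp, 2 at that q, 11 with equal list lengths and 9 at a mean coverage of at least 10, and higher calls 15 with no missing number. Without each library there were 0 to 7 higher and 0 to 14 lower calls, where a lone library is assumed to vary like the other group. Regions with more and fewer summits numbered 861 and 598 at 1500 bp, 73 and 49 at 3000 bp, 1339 and 509 with 150 bp, 0 and 0 with 250 bp, 165 and 140 with no missing number, 95 and 179 at that q, 267 and 252 with equal list lengths and 428 and 431 by the caller's own numbering, and 277 to 405 and 261 to 418 did so without each library, where fewer summits were the more frequent without untreated replicate 1 (349 and 418) and without treated replicate 2 (277 and 360). The cause of these shifts was not tested.

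The replicate numbers share no batch in the labels. The replicate block gave 41 higher and 34 lower calls, which held all 46 of the main ones, and left the differences in summits (0.094), covered bases (72.9 bp), original peaks (0.295), coverage (-7.29) and long peaks (14.5) as they were, with an exact sign-flip p of 0.5, the smallest for 2 pairs, except for relative coverage at 1.0. Deviations of same-numbered libraries correlated at -0.11 over the wide regions, and the crossed replicate block, chosen after seeing the data, gave 76 higher and 42 lower calls. The excess of peaks of at least 8000 bp was 7 to 22 without each library and turned to -13 at 3000 bp and -137.5 at 2000 bp. The summit difference of the second widest region was -0.5 to 4.5 without each library.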

Other observations

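Chromosome X carried 40 wide regions, the widest of 7840 bp. They had 3.30 and 3.33 summits in the untreated and 3.03 and 3.50 in the treated lists, so the groups overlapped, at a median coverage of 20.1 and 18.8 against 11.3 and 15.9. On unplaced contigs there were 6 further wide regions on the contig with ribosomal RNA gene sequence, with a median coverage of 49.8 and 82.8 in the untreated and 101.8 and 58.9 in the treated libraries. A single region on a contig of chromosome 17 had a coverage of 321.8, 240.8, 169.2 and 222.3 in the same order, above the mean coverage of every wide region on chromosomes 1 to 22 that is named here.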
